A study of Mus musculus with 12 samples.

Results

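The 10 genes described here are markers that name a cell as endothelial: Plvap, Vwf, Pecam1, Cdh5, Esam, Eng, Egfl7, Fli1, Erg and Emcn. They were taken by symbol from a table of 45706 genes, and all 10 were found once; Tek, whose promoter drives the reporter in these cells, was kept apart. RNA was sequenced from BN1-Tie2-EGFP cells, a mouse hepatoblastoma line from FVB/N tumors driven by mutant β-catenin and mutant NRF2, in which Cdkn2a had been targeted by Crispr (genotype Cdkn2a KO in all 12 libraries) and EGFP is under the Tie2 (Tek) promoter. The transfected clones were pooled, and the culture is 1 line of tumor origin, so it stands for no normal endothelium. Unsorted cultures grew either at 21% oxygen (UN) or for their last 2 days at 1% oxygen (UH). The sorted line was the brightest EGFP fraction of a hypoxic culture, taken by flow cytometry and regrown in normoxia (SN), and part of it then went through a further 2 days at 1% oxygen (SH). Each group had 3 libraries, called replicates by the labels; nothing used here ties them to separate animals, and p-values measure the spread between these libraries.

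Endothelial cells line the vessels and are held together at their borders by adhesion proteins such as VE-cadherin (Cdh5), PECAM-1 (Pecam1) and ESAM (Esam). They carry the TGF-β and BMP co-receptor endoglin (Eng), secrete EGFL7 and von Willebrand factor (Vwf), and form pores and vesicles closed by diaphragms of PLVAP, while the ETS proteins FLI1 and ERG act at the enhancers of many of these genes. Few of the 10 are restricted to endothelium: endoglin is also carried by mesenchymal cells, and Vwf, Pecam1 and Fli1 are also used by platelets and their precursors or by other blood cells.

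Egfl7 also carries the microRNA miR-126 in an intron. Its mature strand is shown because this is the one sequence in the set with a known regulatory role of its own, and its seed, bases 2 to 8, is in capitals.
mmu-miR-126a-3p: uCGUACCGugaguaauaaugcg
It lies at chr2:26591402-26591423 on the plus strand (GRCm38.p6, RefSeq), inside Egfl7. The libraries were made from polyadenylated RNA and do not measure mature microRNAs, and the hairpin genes Mir126a and Mir126b were listed at 0 in all 12.

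RefSeq promoter windows, which run from 250 bases before to 50 bases after a start, were found for 4 of the 10 genes and gave 8 windows. The windows of Eng and Egfl7 are shown because these 2 genes had the largest falls in the sorted cells. Capitals mark the ETS core GGAAG on either strand, where it reads CTTCC on the minus strand.
Eng, chr2:32646345-32646644, plus strand: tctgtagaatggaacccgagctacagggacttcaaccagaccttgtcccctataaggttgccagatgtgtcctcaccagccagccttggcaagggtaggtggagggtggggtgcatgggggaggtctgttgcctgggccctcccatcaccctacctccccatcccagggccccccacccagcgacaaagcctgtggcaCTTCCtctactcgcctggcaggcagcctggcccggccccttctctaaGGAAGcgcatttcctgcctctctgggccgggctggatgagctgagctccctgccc
Egfl7 start 1, chr2:26580833-26581132, plus strand: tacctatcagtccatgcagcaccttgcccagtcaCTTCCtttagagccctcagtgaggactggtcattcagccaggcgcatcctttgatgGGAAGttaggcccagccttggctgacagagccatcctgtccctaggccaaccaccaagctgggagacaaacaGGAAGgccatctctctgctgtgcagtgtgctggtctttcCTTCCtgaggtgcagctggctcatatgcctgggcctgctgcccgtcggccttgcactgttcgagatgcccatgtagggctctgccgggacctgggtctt
Egfl7 start 2, chr2:26583615-26583914, plus strand: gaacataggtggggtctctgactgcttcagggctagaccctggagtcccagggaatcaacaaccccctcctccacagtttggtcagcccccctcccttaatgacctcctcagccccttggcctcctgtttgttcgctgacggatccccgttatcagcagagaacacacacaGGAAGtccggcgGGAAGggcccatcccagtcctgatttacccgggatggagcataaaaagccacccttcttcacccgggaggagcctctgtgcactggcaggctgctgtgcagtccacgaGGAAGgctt
Egfl7 start 3, chr2:26586386-26586685, plus strand: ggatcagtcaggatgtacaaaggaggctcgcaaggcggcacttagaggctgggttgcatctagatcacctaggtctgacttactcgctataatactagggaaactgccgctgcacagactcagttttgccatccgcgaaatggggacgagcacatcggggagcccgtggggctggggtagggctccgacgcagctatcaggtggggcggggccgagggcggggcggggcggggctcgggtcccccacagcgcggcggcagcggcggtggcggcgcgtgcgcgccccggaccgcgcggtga
Eng held 2 matches and the Egfl7 starts held 4, 3 and 0. Of the other windows, Emcn held 2 and the Erg starts held 0, 1 and 1. The core occurs in 71.4% of the 32851 promoters of the same table, with a median of 1 match. The hypoxia response core ACGTG was in none of the 8 windows and in 19.6% of all promoters. These are letter matches, and no match says only that the letters are not in the window.

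Levels are given as TPM, the share of a library's transcripts that come from a gene, corrected for gene length, so genes can be compared within a library. A gene is called expressed in a group where its mean reached 1 TPM. By that rule 3 of the 10 genes were expressed in UN, 4 in UH, 5 in SN and 6 in SH. Eng, Egfl7 and Fli1 were expressed in every group, Esam in SN and SH, Plvap in UH, SN and SH, and Vwf in SH. Pecam1, Cdh5, Erg and Emcn were expressed in no group. The values nearest the line were Fli1 in SH (1.10 TPM) and Eng in SN (1.14 TPM) above it, and Esam in UH (0.836 TPM) below it. For comparison, 13466 genes, 29.5% of those listed, reached 1 TPM in UN, and 13508, or 29.6%, did so in SH.

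UN replicate 1 stood apart from its group. Its correlation with the other UN libraries was 0.977 and 0.978, against 0.990 between those, and 398 of 13466 genes exceeded 2 times both other UN values while 689 fell under 1/2 of both. The members' results that rest on it, and calls given here for other named genes that ended or moved by over 1.5 times without it, are given without it too. To a lesser degree, SH replicate 3 fell under 1/2 of both other SH values for 340 of 13508 genes. SN replicate 1 did so within SN for 326 of 12724 genes. Eng and Egfl7 each share the end of their span with a gene on the opposite strand, over 61 bases with Fpgs and 64 bases with Agpat2, and an antisense gene, Gm29682, lies over 4249 bases of Cdh5. On its own strand Egfl7 also shares 6482 bases with the protein-coding gene Gm20532, listed at 0 in every library. The part of shared reads was not tested. Depth per library is unknown, since TPM keeps no count.

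**Figure D1:**
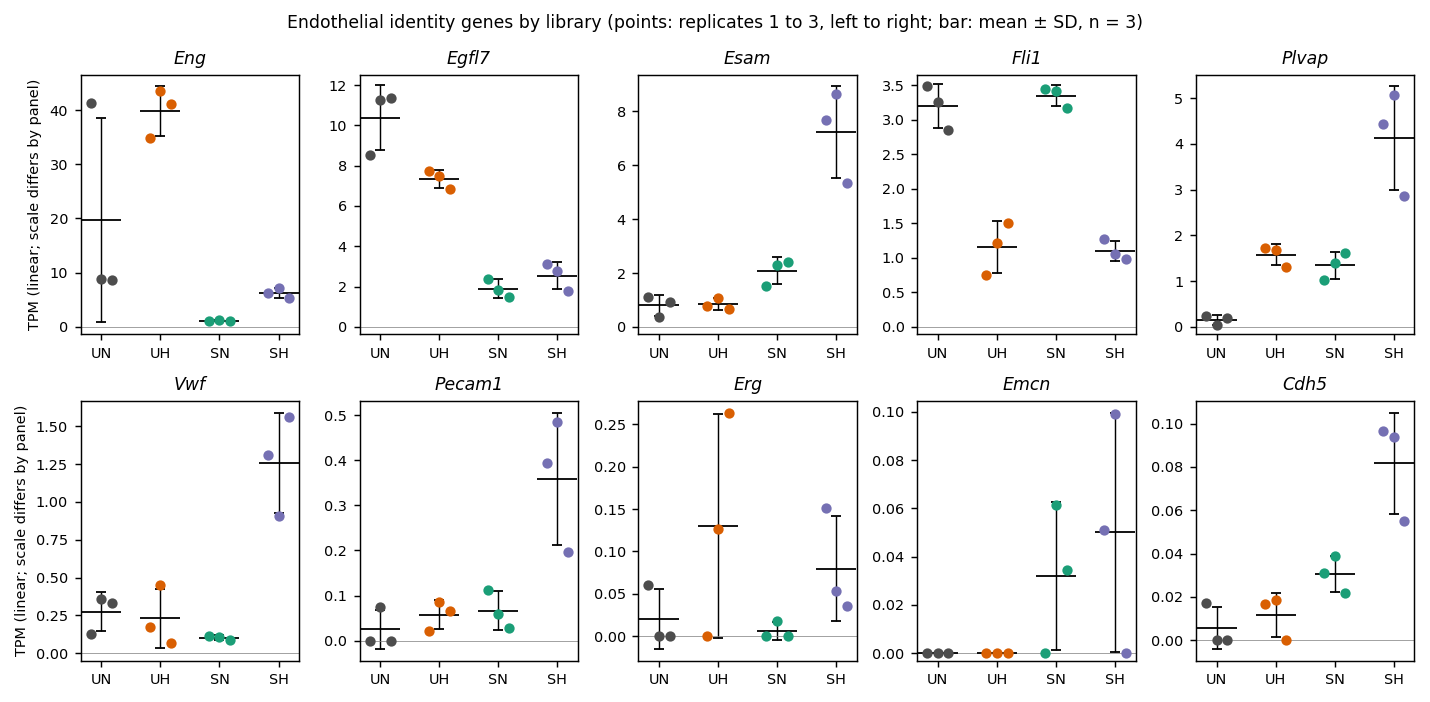
TPM of each of the 10 genes (vertical axes, linear, a scale for each panel) in the 4 groups, with 1 point per library in replicate order and a bar for the mean ± SD (n = 3). Eng was highest in UH, at 34.8 to 43.6 TPM, Esam and Plvap were highest in SH, and no library of Cdh5, Erg or Emcn exceeded 0.264 TPM.

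Eng (ENSMUSG00000026814, chr2:32646595-32682669, plus strand, mm10) had the highest group mean of the 10 genes in UN and UH, although in UN replicates 2 and 3 it lay below Egfl7. Its level was 41.4, 8.88 and 8.67 TPM in UN, 34.8, 43.6 and 41.1 TPM in UH, 1.16, 1.20 and 1.07 TPM in SN, and 6.28, 7.24 and 5.39 TPM in SH. UN replicate 1 sat within the UH range while the other UN libraries lay well below it, and all sorted libraries lay below all unsorted ones. Eng was 19.6 ± 18.8 TPM (SD, n = 3) in UN and 1.14 ± 0.0666 TPM in SN. On the log2(TPM + 1) scale used for all fold changes, it fell by 2.90 from UN to SN (SE 0.436, limma adjusted p = 0.000382), and by 2.19 without UN replicate 1. It also fell by 2.48 from UH to SH (adjusted p = 0.000814, limma). Hypoxia raised it in sorted cells by 1.76 (SE 0.436, limma adjusted p = 0.00695), a ratio of means of 5.51, with no overlap between groups. In unsorted cells the difference was 1.35 (SE 0.436, limma adjusted p = 0.0241), with overlapping libraries, and it depended on single libraries: 2.06 without UN replicate 1, against 1.01 (adjusted p = 0.103, limma) without UN replicate 2, 0.99 (adjusted p = 0.104, limma) without UN replicate 3, and adjusted p = 0.0693 and 0.0566 (limma) without UH replicate 2 and UH replicate 3.

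Eng is also carried by fibroblasts and pericytes, of whose markers several fell with it in sorted cells, while with hypoxia they moved in both directions. The fibroblast and pericyte list, 12 genes of which 10 passed the filter, summed to 1176 to 5161 TPM in UN, 4853 to 7134 in UH, 201 to 211 in SN and 56.8 to 78.3 in SH. Its highest genes by the mean over the 12 libraries were Col1a1, Col3a1 and Col1a2, but in SN and SH Dcn was the highest. Lum, Cspg4 and Rgs5 stayed at or below 0.334 TPM in every library, with Lum at 0 in all UH and SN libraries. Col3a1, a fibrillar collagen, was 1960, 222 and 173 TPM in the UN libraries in replicate order, so the library high for Eng was also high for this collagen. Col1a1, Col1a2, Acta2, Dcn and Pdgfrb were also highest within UN in replicate 1, at 1186, 664, 845, 349 and 74.6 TPM. Pdgfra, of the same list, went the other way, at 80.4, 168 and 176 TPM, as did Rgs5, at 0.0987, 0.199 and 0.228 TPM. The list had 0 genes higher and 5 lower in SN than in UN (3.20% and 7.57% of all genes) and 1 higher and 6 lower in SH than in UH (7.65% and 5.35%). With hypoxia it had 3 higher and 3 lower in UH against UN (5.46% and 11.8% of all genes), and 2 higher and 3 lower in SH against SN (7.47% and 5.0%). Its summed level fell from SN to SH, where Eng rose. There Dcn fell from 119 to 25.4 TPM, Pdgfrb from 43.8 to 6.08 TPM and Acta2 from 30.5 to 4.09 TPM. Over the same step Col1a1 rose from 6.66 to 22.2 TPM and Des from 1.41 to 8.89 TPM. From UN to UH Pdgfra fell by 2.24 while Col1a1 rose by 2.25. Without UN replicate 1 the counts were 3 higher and 1 lower of 9 tested in UH against UN (5.88% and 13.9% of all genes). In SN against UN they were 0 higher and 5 lower (3.93% and 9.06%). The part of these genes in the Eng result was not tested. In bulk RNA, fewer cells of a type and less RNA per cell cannot be told apart.

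Egfl7 (ENSMUSG00000026921, chr2:26580014-26593120, plus strand), a secreted factor of vessel formation, was 8.51, 11.3 and 11.4 TPM in UN, 7.71, 7.50 and 6.85 TPM in UH, 2.40, 1.85 and 1.47 TPM in SN, and 3.11, 2.76 and 1.78 TPM in SH. Every sorted library was lower than every unsorted one, and the SN and SH ranges overlapped. The mean fell from 10.4 ± 1.62 to 1.91 ± 0.468 TPM between UN and SN, a log2 change of -1.97 (SE 0.188, limma adjusted p = 1.29e-05), and from 7.35 ± 0.452 to 2.55 ± 0.688 TPM between UH and SH, a log2 change of -1.25 (adjusted p = 0.000272, limma). Neither response to hypoxia passed the test, at -0.44 in unsorted cells (adjusted p = 0.0778, limma) and 0.28 in sorted cells (adjusted p = 0.262, limma). Without UN replicate 1 the unsorted difference was -0.56 (adjusted p = 0.0322, limma), still under the fold of 2. Together, Eng and Egfl7 supplied 82.3 to 92.5% of the summed TPM of the 10 genes in unsorted libraries and 25.6 to 39.4% in sorted ones. That sum was 24.2 to 54.9 TPM in UN, 45.9 to 55.8 in UH, 9.82 to 10.5 in SN and 18.2 to 26.4 in SH.

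Of the junction genes, Esam (ENSMUSG00000001946, chr9:37528078-37538319, plus strand), an adhesion protein of tight junctions, was 1.10, 0.375 and 0.926 TPM in UN, 0.763, 1.09 and 0.658 TPM in UH, 1.52, 2.32 and 2.43 TPM in SN, and 7.70, 8.66 and 5.35 TPM in SH. The SH libraries were the highest, the SN libraries came next, and UN and UH overlapped. Esam rose from SN to SH by 1.41 (SE 0.216, limma adjusted p = 0.000322), a ratio of means of 3.47, and was higher in SH than in UH by 2.15 (adjusted p = 1.39e-05, limma). The difference between SN and UN, 0.79 (adjusted p = 0.0146, limma), stayed under the fold of 2. Unsorted cells showed 0.04 between UH and UN (95% interval -0.43 to 0.52). The test of the difference between the 2 responses gave 1.36 (SE 0.305, limma adjusted p = 0.00927).

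Pecam1 (ENSMUSG00000020717, chr11:106654217-106750628, minus strand), the adhesion protein used most often to stain vessels, was 0, 0.0749 and 0 TPM in UN, 0.0221, 0.0856 and 0.0658 TPM in UH, 0.113, 0.0591 and 0.0282 TPM in SN, and 0.394, 0.484 and 0.197 TPM in SH. All SH libraries lay above all others, yet below 1 TPM. Pecam1 passed the filter, a mean of 0.1 TPM over the 12 libraries, at 0.127 TPM and only through SH. Its means in UN, UH and SN were 0.0250, 0.0578 and 0.0669 TPM. The comparisons with SH that follow are therefore not independent of SH being high. The log2 difference between SH and SN was 0.34 (SE 0.0958, limma adjusted p = 0.0132) and that between SH and UH was 0.36 (adjusted p = 0.0110, limma), both under the fold of 2 on this scale, although the ratios of means were 5.36 and 6.20.

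Cdh5 (ENSMUSG00000031871, chr8:104101625-104144511, plus strand), which encodes VE-cadherin, was 0.0169, 0 and 0 TPM in UN, 0.0165, 0.0185 and 0 TPM in UH, 0.0312, 0.0387 and 0.0218 TPM in SN and 0.0967, 0.0937 and 0.0548 TPM in SH. It was listed at 0 in 3 libraries, the SH values were the highest and the maximum was 0.0967 TPM, where a value near 0 can rest on very few reads. Emcn (ENSMUSG00000054690, chr3:137341067-137432185, plus strand), a sialomucin of capillary and venous endothelium, was listed at 0 in all UN and UH libraries, at 0, 0.0613 and 0.0345 TPM in SN and at 0.0510, 0.0991 and 0 TPM in SH. Neither gene passed the filter on low values, a mean of 0.1 TPM over the 12 libraries. Emcn had at least 1 library at 0 in every group, so its groups overlapped. With no filter, Cdh5 gave a log2 difference of 0.07 between SH and SN (adjusted p = 0.0145, limma) and 0.10 between SH and UH (adjusted p = 0.00278, limma), far under the fold of 2.

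Plvap (ENSMUSG00000034845, chr8:71497765-71511752, minus strand), the diaphragm protein of fenestrae and caveolae, was 0.244, 0.0383 and 0.185 TPM in UN, 1.73, 1.68 and 1.31 TPM in UH, 1.03, 1.39 and 1.61 TPM in SN, and 4.43, 5.07 and 2.87 TPM in SH. All UN libraries were the lowest and all SH libraries the highest, while UH and SN overlapped. It rose with hypoxia in unsorted cells by 1.15 (SE 0.181, limma adjusted p = 0.000277) and in sorted cells by 1.11 (SE 0.181, limma adjusted p = 0.000484), from 0.156 ± 0.106 to 1.57 ± 0.229 TPM and from 1.34 ± 0.294 to 4.13 ± 1.13 TPM. The difference between the 2 responses was -0.04 (95% interval -0.60 to 0.52, adjusted p = 0.921, limma). Sorted cells in normoxia also exceeded UN by 1.02 (adjusted p = 0.00116, limma), a call that ended with 0.94, 0.997 and 0.93 when UN replicate 2, SN replicate 2 or SN replicate 3 was left out. The SH to SN call ended, at 0.98, without SH replicate 2. SH exceeded UH by 0.97 (adjusted p = 0.00120, limma), under the fold of 2, and by 1.02, 1.004 and 1.16 without UH replicate 1, UH replicate 2 or SH replicate 3, past it. The 3' end of Plvap shares 1819 bases of genomic span with Gtpbp3 on the opposite strand. The kit keeps strand but the counting setting is not given in the sources used here. Gtpbp3 was 25.3 to 28.3 TPM in UN, 10.8 to 12.9 TPM in UH, 30.3 to 34.05 TPM in SN and 20.9 to 22.9 TPM in SH, so it was lower in both hypoxic groups, where Plvap was higher, and higher in SN than in UN, as Plvap was. The part of shared reads was not tested.

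Vwf (ENSMUSG00000001930, chr6:125546774-125686679, plus strand), the clotting glycoprotein stored in Weibel-Palade bodies, was 0.125, 0.358 and 0.335 TPM in UN, 0.175, 0.447 and 0.0649 TPM in UH, 0.111, 0.110 and 0.0861 TPM in SN, and 1.31, 0.907 and 1.56 TPM in SH. All SH libraries lay above all others, and UN and UH overlapped. The rise from SN to SH was 1.02 (SE 0.144, limma adjusted p = 0.000176), a ratio of means of 12.3, and without SH replicate 3 it was 0.93, under the fold of 2. In unsorted cells the difference was -0.06 (95% interval -0.37 to 0.26). The test of the difference between the 2 responses gave 1.08 (SE 0.204, limma adjusted p = 0.00379), and 0.98 without UH replicate 3 or without SH replicate 3, just under the fold of 2. SH exceeded UH by 0.88 (adjusted p = 0.000507, limma), also under it, and by 1.003 without UH replicate 2.

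Vwf is also made by megakaryocytes, and of 6 markers of that lineage 4 passed the filter. Their sum was 12.8 to 17.1 TPM in UN, 10.4 to 11.96 in UH, 31.9 to 63.9 in SN and 21.6 to 31.0 in SH. Gp6 was listed at 0 in all libraries and Gp9 in 10 of the 12, all but SH replicates 2 and 3. The list had 1 gene higher and 1 lower of 4 tested in SH than in SN, where 7.47% and 5.0% of all genes were. Itga2b rose from 2.61 ± 0.760 TPM in SN to 18.4 ± 4.29 TPM in SH (log2 change 2.42, adjusted p = 9.18e-06, limma). Ppbp, which carries most of the sum in SN, fell from 48.5 to 7.67 TPM (log2 change -2.44, adjusted p = 1.95e-05, limma). Pf4 was 1.19 TPM in SN and 0.361 TPM in SH (adjusted p = 0.0269, limma, under the fold of 2). Among 11 leukocyte markers, 6 passed the filter. Their sum was 5.30 to 10.1 TPM in UN, 21.6 to 22.9 in UH, 10.1 to 14.8 in SN and 60.0 to 64.3 in SH, of which Cd68 alone was 51.2 to 55.9 TPM in SH. Csf1r was 1.72 to 7.47 TPM over the 12 libraries and rose from UN to UH by 1.17 (adjusted p = 0.00284, limma), and Lyz2 was 0.282 to 1.87 TPM. Itgam and Laptm5 were highest in SH, at 0.273 to 0.717 TPM and 0.353 to 0.415 TPM, whereas Ptprc, the pan-leukocyte marker, reached at most 0.121 TPM and Adgre1 0.0208 TPM. Spi1 and Tyrobp were listed at 0 in all UN and UH libraries. The part of these genes in the Vwf and Pecam1 values was not tested.

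Of the ETS factors, Fli1 (ENSMUSG00000016087, chr9:32422204-32542861, minus strand) was 3.48, 3.26 and 2.86 TPM in UN, 0.757, 1.21 and 1.51 TPM in UH, 3.45, 3.42 and 3.18 TPM in SN, and 1.27, 1.06 and 0.979 TPM in SH. Both hypoxic groups lay below both normoxic ones, and sorted and unsorted cells overlapped at either oxygen level. It fell from SN to SH by 1.05 (SE 0.153, limma adjusted p = 0.000227). The change from UN to UH was -0.97 (SE 0.153, limma adjusted p = 0.000292), just under the fold of 2, and past it at -1.03 without UN replicate 3 and -1.09 without UH replicate 3. The difference between the responses was -0.08 (95% interval -0.55 to 0.40). SN differed from UN by 0.05 (95% interval -0.28 to 0.39). The all-gene median moved by -0.19 between UH and UN, and with median-of-ratios scaling, which sets that median to 0, the Fli1 value was -0.75.

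Erg (ENSMUSG00000040732, chr16:95359169-95586593, minus strand), the ETS factor most closely tied to endothelial identity, was 0.0610, 0 and 0 TPM in UN, 0, 0.126 and 0.264 TPM in UH, 0, 0.0186 and 0 TPM in SN and 0.151, 0.0529 and 0.0361 TPM in SH. It was listed at 0 in 5 libraries, spread over UN, UH and SN. All SH libraries lay above all SN libraries, and the other compared groups overlapped. Without the filter none of its comparisons passed (lowest adjusted p = 0.371, limma).

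**Figure D2:**
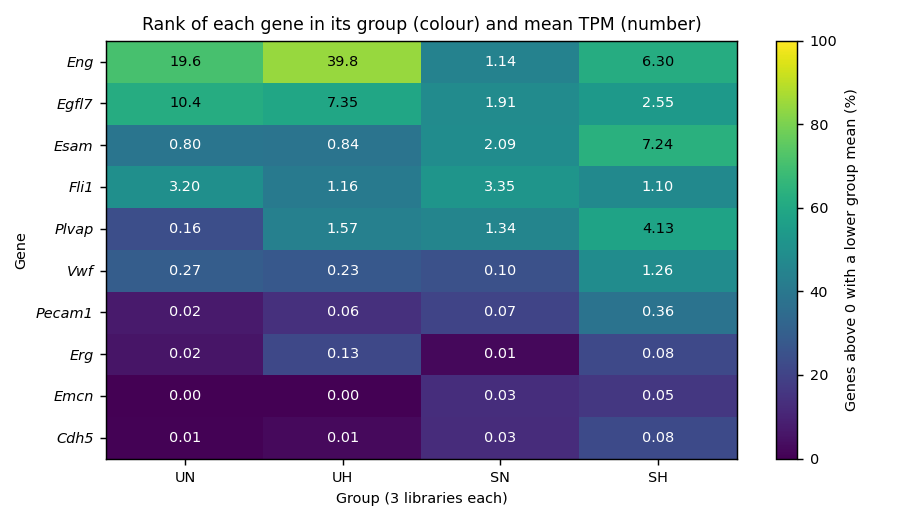
Each cell gives the group mean TPM of a gene (rows; 4 groups in columns, n = 3) as a number and, as colour, the percent of all genes above 0 in that group with a lower mean. Eng stood above 84.5% of those genes in UH and 44.4% in SN, Esam above 63.4% in SH, and Cdh5, Erg and Emcn never above 22.3%.

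The 2 ETS members were at the lower end of their family. Of 26 ETS genes, 18 reached 1 TPM in UN and SN and 17 in UH and SH, and 8 did so in no group. Ets2 (55.1 TPM in UN and 160 TPM in SN), Gabpa (57.3 and 101 TPM), Erf (78.3 and 66.9 TPM), Ets1 (46.8 and 48.3 TPM) and Elk3 (39.1 and 73.0 TPM) were 10 or more times as high as Fli1 in each of these groups. Etv2, a master factor of endothelial development, was listed at 0 in all libraries. Of the 20 ETS genes tested, 0 were higher and 5 lower in UH than in UN, where 5.46% and 11.8% of all genes were. The 5 were Etv4 (log2 change -1.41), Etv6 (-1.16), Etv1 (-1.05), Ehf (-1.05) and Elf3 (-1.05). Without UN replicate 1 Etv1 gave -0.72 and was no longer past the fold of 2. In SH against SN, 0 ETS genes were higher and 4 lower (7.47% and 5.0% of all genes): Fli1, Etv4 (-1.50), Etv1 (-1.30) and Ets2 (-1.06). Their median log2 change was -0.63 and -0.41 in these comparisons, beside -0.19 and 0.03 over all genes.

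**Figure D3:**
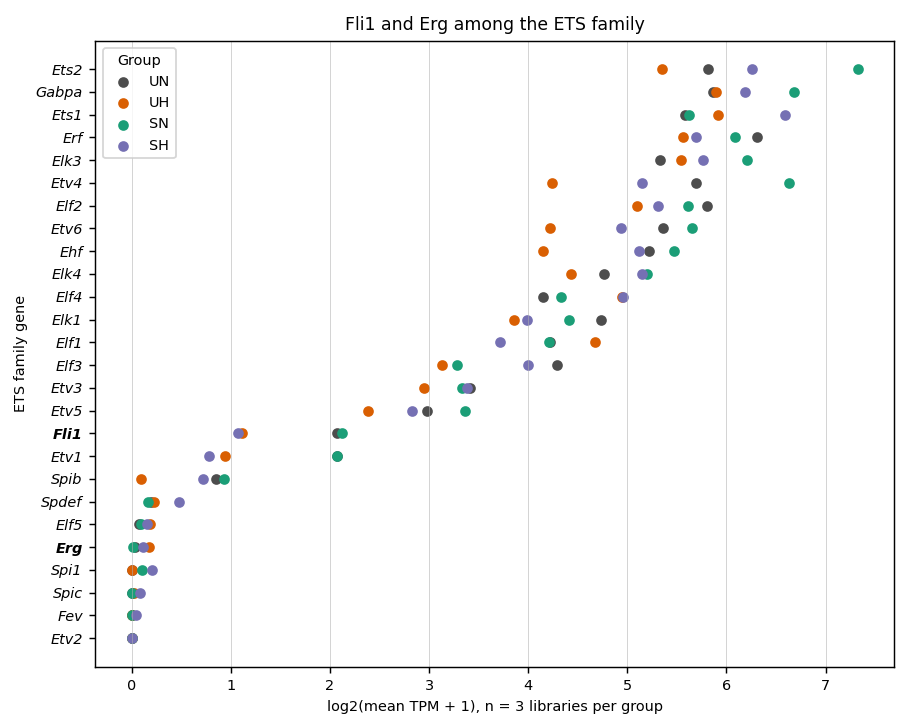
Mean level of each of 26 ETS family genes (rows, ordered by mean) in the 4 groups (colours, n = 3) as log2(mean TPM + 1), with Fli1 and Erg in bold. Fli1 sat at 3.20 and 3.35 TPM in UN and SN and at 1.16 and 1.10 TPM in UH and SH, with 16 genes above it, and Erg lay near 0.

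Seen as a set, 7 of the 10 genes passed the filter and could be tested; they passed it only where some group was high enough, so they are not all members. A gene is called where its adjusted p was under 0.05 and its fold above 2. In UH against UN, 2 of the 7 were higher (Plvap, Eng) and 0 lower, where 5.46% of the 18909 genes tested were higher and 11.8% lower. The groups did not overlap for 3 of the 7, against 51.1% of all genes. The median log2 change of the 7 was 0.04, beside -0.19 over all genes.

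In SH against SN, 4 of the 7 were higher (Eng, Esam, Plvap, Vwf) and 1 lower (Fli1), where 7.47% of all genes were higher and 5.0% lower. Libraries did not overlap for 6 of the 7, against 56.8% of all genes, and the medians were 1.02 and 0.03. In SN against UN, 1 was higher (Plvap) and 2 lower (Eng, Egfl7), where 3.20% of all genes were higher and 7.57% lower, and 5 did not overlap, against 49.0%. The medians were 0.05 and -0.06. In SH against UH, 1 was higher (Esam) and 2 lower (Eng, Egfl7), where 7.65% were higher and 5.35% lower, and 6 did not overlap, against 51.7%. The medians were 0.36 and 0.17. These 4 comparisons share groups with one another and are not independent.

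For the difference between the sorted and unsorted responses to hypoxia, 2 of the 7 were higher (Vwf, Esam) and 0 lower, where 8.08% of all genes were higher and 2.18% lower. Median-of-ratios scaling moved the balance over all genes from 1032 higher and 2222 lower to 1564 and 1217 in UH against UN, from 1447 and 1012 to 1021 and 1323 in SH against UH, and from 1527 and 412 to 901 and 782 for the difference. The members called in the first 2 were as many as before, and for the difference Vwf gave 0.997 and was no longer past the fold of 2.

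**Figure D4:**
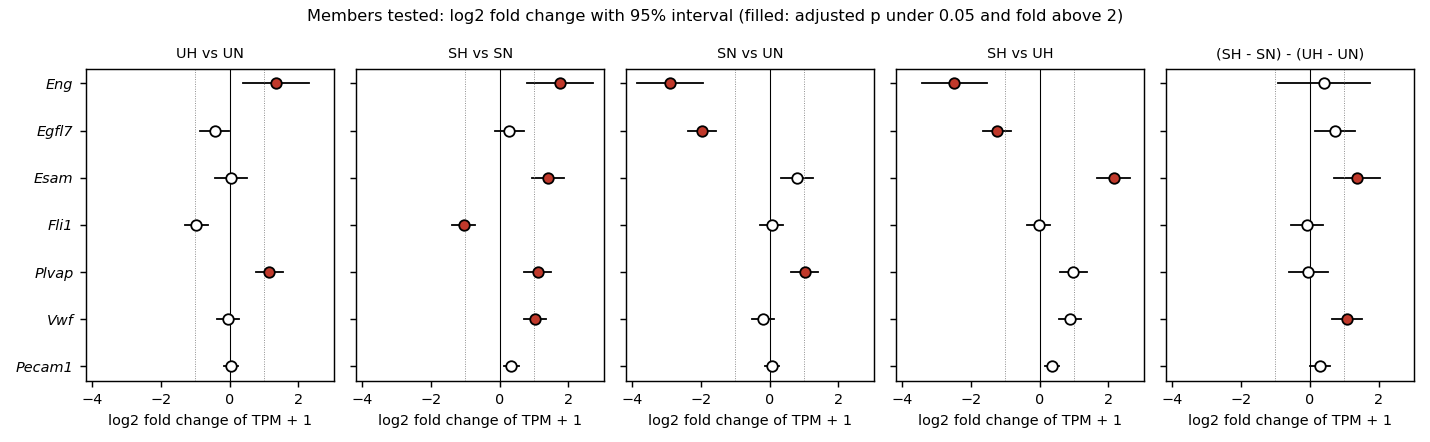
Log2 fold change of TPM + 1 (horizontal axis) with its 95% interval for the 7 genes tested (rows), in 4 comparisons and in the difference between the sorted and unsorted responses, where filled points passed the adjusted p and the fold of 2 and dotted lines mark that fold. Eng and Egfl7 were lower in both sorted groups, at -2.90 and -1.97 in SN against UN, and Esam and Vwf had filled points in the last panel, at 1.36 and 1.08.

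The other endothelial genes were as uneven. Of 35 further surface and signaling genes, 11 reached 1 TPM in UN and UH, 9 in SN and 10 in SH, and 20 did so in no group. Among those, the VEGF receptor Kdr stayed at or below 0.213 TPM, Tie1, the sister receptor of Tek, at or below 0.0222 TPM and the claudin Cldn5 at or below 0.0415 TPM. Tek itself was 0.133, 0.124 and 0.141 TPM in UN, 0.158, 0.226 and 0.0853 TPM in UH, 2.69, 2.70 and 2.07 TPM in SN, and 3.29, 3.00 and 2.83 TPM in SH, higher in sorted cells by 1.62 in normoxia and 1.80 in hypoxia (adjusted p = 1.80e-06 and 5.91e-07, limma). The sort was made on EGFP from the Tek promoter, so this difference is not independent of how the cells were chosen. The sorted line had also been through hypoxia and regrowth, which cannot be told apart from the sort.

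Of the 20 surface genes tested, 4 rose and 1 fell in UH against UN, where 5.46% and 11.8% of all genes did, and 7 rose and 1 fell in SH against SN, where 7.47% and 5.0% did. The median log2 changes were -0.05 and 0.31, beside -0.19 and 0.03 over all genes. Flt1, a VEGF receptor, rose by 2.78 from 2.52 ± 0.962 to 23.0 ± 5.07 TPM in unsorted cells and by 1.06 from 1.33 ± 0.176 to 3.86 ± 0.482 TPM in sorted cells, and these responses differed by -1.72 (adjusted p = 0.00246, limma). Podxl, a sialomucin, rose by 1.82 and 1.34, and Aplnr, the apelin receptor, by 1.17 and 1.51. The remaining riser in UH was Rhoj, with a log2 change of 1.77, and 2.47 without UN replicate 1. Acvrl1, the type I receptor that pairs with endoglin, rose in sorted cells by 1.28, from 0.178 ± 0.0607 to 2.03 ± 1.13 TPM, and its 2 responses differed by 1.10 (adjusted p = 0.0374, limma), a call that ended without UN replicate 1 (1.04, adjusted p = 0.0528, limma). Cd93 rose there by 1.13, with a difference of 1.09 (adjusted p = 0.00876, limma), which was 0.87 and under the fold of 2 without UN replicate 1. Flt4 (1.16) and S1pr1 (1.13) also rose from SN to SH. The surface gene that fell in UH against UN was Tm4sf1 (-1.94), and in SH against SN it was Ecscr (-1.01). Of the 10 receptors and adhesion partners listed, 9 reached 1 TPM in UN, UH and SN and 10 in SH, where Acvrl1 was the addition.

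In SN against UN, 2 surface genes rose, Tek and Podxl (1.58), and 5 fell, where 3.20% of all genes rose and 7.57% fell. The 5 were Tm4sf1 (-5.31), S1pr1 (-2.86), Rhoj (-2.70), Thbd (-2.62) and Jam2 (-2.25). These 5 also fell in SH against UH, at -4.28, -1.48, -4.69, -1.81 and -2.99, with Flt1 (-2.28). In that comparison 4 surface genes rose and 6 fell, where 7.65% and 5.35% of all genes did. The risers were Cd93 (1.89), Tek (1.80), Podxl (1.11) and Acvrl1 (1.01). Rhoj and Jam2, like Eng, were highest within UN in replicate 1, at 22.4 and 10.4 TPM against 4.15 to 4.76 and 3.13 to 3.80 TPM. Without that library their changes from UN to SN were -2.003 and -1.80. Of 7 sinusoidal genes, 3 of the 5 tested rose in SH against SN (7.47% of all genes): the scavenger receptors Stab1 (2.09) and Mrc1 (1.25), and Oit3 (1.50). From UN to UH, 1 of the 5 rose (5.46% of all genes), which was Oit3 (2.14). In SH against UH, 1 was higher (7.65%), which was Mrc1 (1.34). Of 15 transcription factors, 8 reached 1 TPM in every group and 7 in no group. Among those 7, Sox7, Sox17 and Sox18 stayed at or below 0.436 TPM in every library. Of the 8 tested, Hhex fell from UN to UH by 1.51 (0 higher and 1 lower, 5.46% and 11.8% of all genes). From SN to SH, Hey1, a Notch target, rose by 1.68 and Ets2 fell by 1.06 (7.47% and 5.0%). Ets2 was higher in SN than in UN by 1.51 (1 higher and 0 lower, 3.20% and 7.57%). In SH against UH, Ets2 (1.001) and Hhex (1.24) were higher and 0 lower (7.65% and 5.35%). The median log2 changes were 0.67 in SN against UN and 0.63 in SH against UH, beside -0.06 and 0.17 over all genes. Of 12 hepatic markers, 8, 7, 4 and 5 reached 1 TPM in UN, UH, SN and SH. In SN against UN, 1 of the 10 tested was higher and 6 were lower (3.20% and 7.57% of all genes). Afp was higher (1.86), and Dlk1 (-5.06), Krt8 (-3.43) and Cdh1 (-2.68) were among the lower. Krt18 was 93.4 TPM in UN and 126 TPM in SN.

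**Figure D5:**
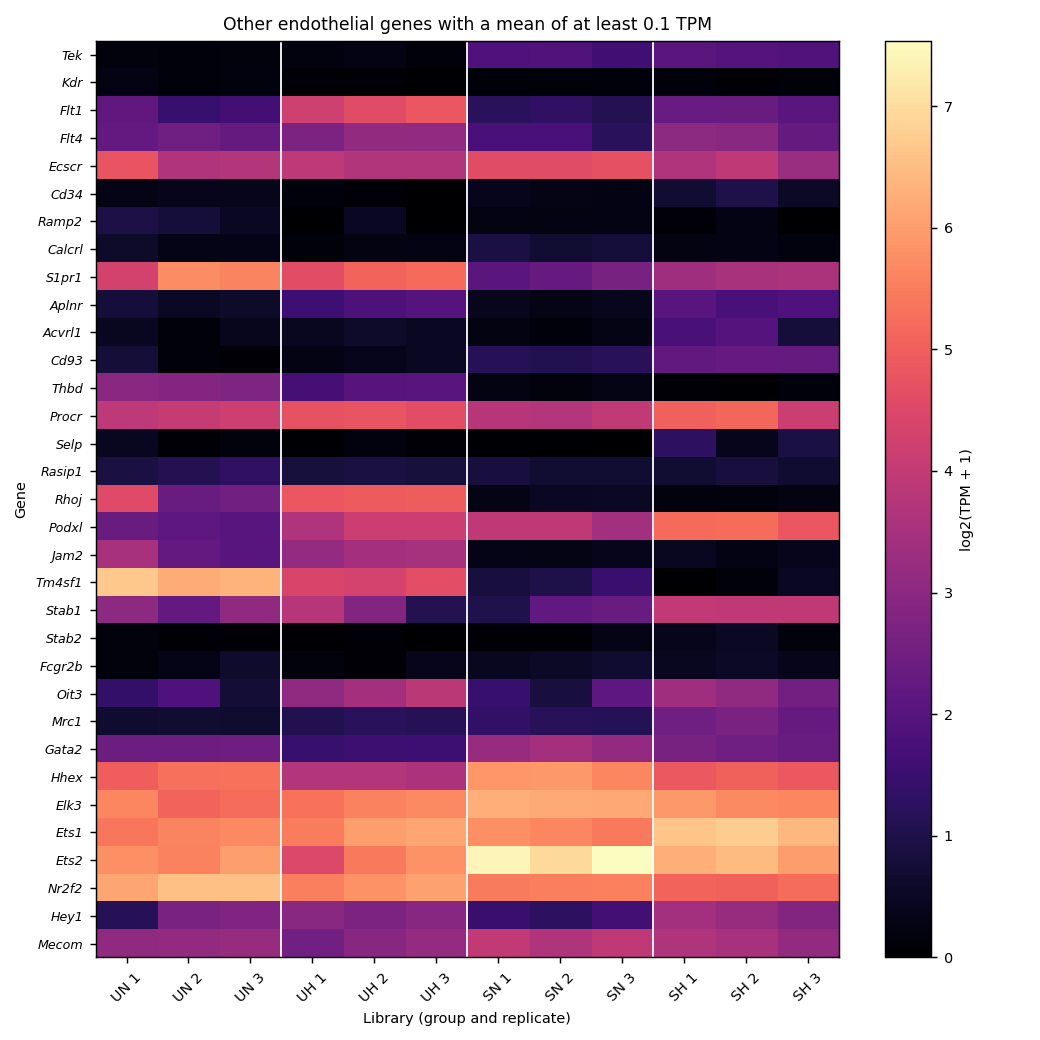
Level as log2(TPM + 1) (colour) of the other endothelial genes with a mean of at least 0.1 TPM (rows) in each of the 12 libraries (columns, grouped by white lines). Tm4sf1, at 74.6 to 99.8 TPM in UN and at most 0.386 TPM in SH, and Rhoj were dark in sorted libraries, while Podxl and Cd93 were brightest in SH.

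Over the 12 libraries, which fall into 4 groups and share their oxygen and sorting contrasts, the genes most like each member with a mean of at least 1 TPM over all 12 (Plvap, Esam, Eng, Egfl7 and Fli1) were sought among 13566 genes by Pearson's r of log2(TPM + 1), as a description. Plvap was most like Syngr1 (0.983), Hist1h4i (0.978) and Hpcal1 (0.977), and Esam most like 4732491K20Rik (0.987), Tnfsf13 (0.984) and Tango2 (0.981). Eng was most like Adamts2 (0.983), Ckap4 (0.981) and Fam20a (0.980), and Egfl7 most like B4galt2 (0.984), Cnn1 (0.984) and Lsr (0.982). Fli1 was most like 6530402F18Rik (0.991), Cemip (0.986) and Flot2 (0.986). No member was among the genes most like another. The genes searched all had a mean of at least 1 TPM, so Vwf, Pecam1, Cdh5, Erg and Emcn could not appear. Between members, r was 0.865 for Pecam1 with Esam, 0.850 for Plvap with Esam, 0.747 for Eng with Egfl7 and -0.709 for Plvap with Fli1.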

How the data were processed

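RNA from the 12 cultures was prepared with a stranded mRNA kit and sequenced as 150-cycle paired ends. Per the labels and the study's methods, the authors ran nf-core/rnaseq 3.12.0 on build mm10 and deposited gene-level TPM; the annotation release, the strand setting of the counting and the depth are not given in the sources used here. Gene positions came from GENCODE M21, in which 45143 of 45706 identifiers (98.8%) were found, and sequences from RefSeq on GRCm38.p6.

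TPM values were fitted as log2(TPM + 1) with limma 3.58.1 (trend, R 4.3.3) over all 12 libraries in 1 model, after removing genes with a mean under 0.1 TPM, which left 18909. P-values were adjusted by Benjamini-Hochberg over all genes tested, and a gene was called at an adjusted p under 0.05 and a fold above 2. The scale understates the change of low genes. The design named limma for TPM because no count table was used here, and an exact permutation test of 3 against 3 libraries cannot go below p = 0.1. The fit was checked on simulated data. Tables and figures used Python 3.11.15, pandas 2.3.3 and matplotlib 3.10.9.

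The members and gene lists were chosen with earlier results of these data known. Named were all 10 members in every library, Tek, and the 3 genes most like each member with a mean of at least 1 TPM. Up to 3 of the highest genes of each other list were named too. Planned were up to 5 called genes per direction and comparison from the other endothelial lists, and the ETS factors reaching 5 TPM. These rules were not followed in full, and several such ETS factors are not named. Further markers of other cell types, Etv2, Tie1, Kdr, Cldn5 and the Sox genes were named after their values were seen. Alternatives were the pseudocount, the filter, scaling, the moderation, the groups in the fit, a replicate block and leaving out each library. The other lists were refitted without UN replicate 1, an alternative chosen after seeing the data.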

Additional observations from a re-analysis of the deposited data

Results flagged for a closer look

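Of the 7 genes tested, Vwf and Esam differed between sorted and unsorted cells in their response to hypoxia, by the test of the difference itself. Vwf changed by 1.08 more on the log2(TPM + 1) scale from SN to SH than from UN to UH (SE 0.204, limma adjusted p = 0.00379), and all 3 SH libraries lay above all SN libraries. Esam changed by 1.36 more (SE 0.305, limma adjusted p = 0.00927), again with all 3 SH libraries above all SN libraries and overlapping UN and UH libraries. The fraction of all 18909 genes with such a positive difference was 8.08%, and the median difference over all genes was 0.25.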

How the results depend on the processing

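The number of members called moved by over 1.5 times under few alternatives. With a pseudocount of 0.1 it was 6 in SH against UH (4 higher, 2 lower), where Vwf (2.19), Pecam1 (1.50) and Plvap (1.31) joined, and Fli1 (-1.43, UH against UN), Pecam1 (1.43, SH against SN) and Esam (1.36, SN against UN) were called too. It was 1 in UH against UN with no filter (Eng adjusted p = 0.116, limma) and with the compared groups alone (Eng adjusted p = 0.0796, limma), and 1 for the difference between responses with a filter at 1 TPM, which removes Vwf, and with median-of-ratios scaling. Expressed members numbered 6 in UN and 7 in UH at a line of 0.1 TPM, and 2 in UH, 0 in SN and 2 in SH at 5 TPM. Leaving out 1 library gave 1 to 2 called in UH against UN, 4 to 5 in SH against SN, 2 to 3 in SN against UN, 3 to 5 in SH against UH, 1 to 2 for the difference, and 3 to 4 expressed in UN and in UH. Sign changes were limited to values that were not called: Vwf in UH against UN with median-of-ratios scaling (0.0185), and over left-out libraries Vwf (-0.181 to 0.0407) and Esam (-0.14 to 0.17) in UH against UN, Fli1 in SN against UN (-0.0082 to 0.10) and SH against UH (-0.168 to 0.0896), and the differences of Eng (-0.30 to 0.77), Plvap (-0.18 to 0.15) and Fli1 (-0.220 to 0.0374). For these the cause was not tested. Pecam1 fell under the filter in 1 left-out fit of SH. Same-numbered libraries did not deviate together (correlations -0.063 to 0.141; in each comparison at most 1 of 3 numbers matched best), and a replicate block changed no call, with 2 members called in UH against UN, 5 in SH against SN, 3 in SN against UN, 3 in SH against UH and 2 for the difference. Without counts, low values carry an unknown counting error.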
